A study of Mus musculus with 26 samples.

Results

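The genes described here are the D-type cyclins Ccnd1, Ccnd2 and Ccnd3, the E-type cyclins Ccne1 and Ccne2, and the cyclin-dependent kinases that pair with them, Cdk2, Cdk4 and Cdk6. These 8 genes of the 18193 measured were taken by name, through every probe set that the platform annotation assigned to 1 of them alone, 24 probe sets in all. They were followed in 26 mouse retinal cells, each hybridised to an Affymetrix expression array of its own. The 13 N1-CKO cells were homozygous for a floxed Notch1 allele and came from retinas electroporated in vivo with CAG:Cre and the Cre-dependent reporter CALNL-GFP. The 13 WT cells carried the same homozygous Notch1 flox alleles, on the same C57BL/6 strain, and came from retinas of related pups electroporated with CAG:GFP, so that they received no Cre. Electroporation was at postnatal day 0 and harvest at postnatal day 3, and cells were picked for their GFP. CAG is a broadly active promoter, so Cre was limited by which cells took up the plasmids and not by cell type. No animal, litter or picking session is named for any cell. Each group was therefore taken as 1 sample, no test was possible, and each SD below is the spread over cells.

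In G1, D-type cyclins bind Cdk4 or Cdk6, and E-type cyclins bind Cdk2. These kinases phosphorylate the retinoblastoma proteins, which frees E2F factors to turn on genes of DNA replication, while Cdk inhibitors hold the kinases back. In the developing retina Ccnd1 is the main D-type cyclin of progenitors, the cells that still divide, and Mki67 is a gene that dividing cells express and resting cells lack.

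Values are the log2 of MAS5 signal, with signals under 25.02 raised to that floor (log2 of 4.65). A gene counted as detected where it stood among the brightest probe sets of its array, at or above the 90th percentile. This threshold, set for every cell on its own, lay between 7.94 and 11.08 on the log2 scale in N1-CKO cells and between 8.63 and 11.23 in WT cells. Exact Clopper-Pearson 95% intervals are given for shares of cells and cover counting error only, and the number of arrays limits the precision. Where a gene was found in no cell of a set, the share allowed is instead 3 divided by the number of cells. A difference is a mean log2 value, N1-CKO minus WT, so it mixes how many cells had the gene with how bright it was in them.

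Signs of array quality differed between the groups. The ratio of 3′ to 5′ Gapdh probe sets ran from 1.46 to 245.4 in N1-CKO cells (median 2.67) and from 1.40 to 3.26 in WT cells (median 1.79), and it was at most 3 in 8 N1-CKO and 11 WT cells. Signal of 18S RNA split the arrays into a high set of 5 N1-CKO and 5 WT cells and a low set of 8 and 8. Notch1 itself was detected in 8 of 13 N1-CKO and 10 of 13 WT cells. Whether the Notch1 probe sets lie in the deleted part was not examined, so this is no check of the deletion. Markers of photoreceptors and neurons also moved with the groups, and their values stand beside the gene lists below. The part of any of these in the differences below was not tested.

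Ccnd1 was detected in 10 of 13 N1-CKO cells (76.9%, 46.2 to 95) and in all 13 WT cells (100%, 75.3 to 100). Its log2 signal was 4.65 at the lowest, 13.33 at the median and 15.92 at the highest in N1-CKO cells, and 13.93, 15.10 and 16.87 in WT cells. In 9 of the 13 N1-CKO cells Ccnd1 lay below the lowest WT cell, and the other 4 lay within the WT range. N1-CKO cells were widely spread, at 12.02 ± 3.87, against 15.12 ± 0.79 in WT cells (SD, n = 13 each). The difference was -3.10, smaller than the spread over N1-CKO cells and larger than that over WT cells. Over the cells that had Ccnd1, the mean was 13.96 ± 1.27 in 10 N1-CKO cells and 15.12 ± 0.79 in 13 WT cells, a gap that is within the spread over the N1-CKO cells. The difference was -2.48 where the Gapdh ratio did not exceed 3, -3.68 on high 18S arrays and -2.74 on low 18S arrays. All 3 Ccnd1 probe sets had a lower mean in N1-CKO cells, with differences of -3.10, -3.90 and -3.16. The least bright of them was detected in 2 N1-CKO and 7 WT cells.

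The 3 cells without Ccnd1 were N1-CKO cells 5, 8 and 13, and none of them had another D-type cyclin. Cdk4 was bright in each, at 15.51, 16.25 and 12.96, so these were cells with a G1 kinase transcript and no detected cyclin partner among the 5 cyclins. Mki67 was not detected in any of them. Of 17 measured replication genes they had 3, 1 and 1, of 8 progenitor markers 2, 2 and 1, and of 6 neuronal markers 4, 2 and 4. Their Gapdh ratios were 245.4, 1.96 and 3.43.

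Ccnd2, a D-type cyclin that can stand in for Ccnd1, was detected in 2 N1-CKO cells (15.4%, 1.9 to 45.4) and in 0 of 13 WT cells, which allows a share of up to 23.1%. Both N1-CKO cells lay on high 18S arrays. In N1-CKO cell 3 it reached 13.51, with 4 of its 7 probe sets detected, and in N1-CKO cell 9 it reached 10.15 with 1 probe set. The medians over all cells were 6.74 in N1-CKO and 4.94 in WT cells, not far above the floor. The means were 7.05 ± 2.54 in N1-CKO and 5.68 ± 1.30 in WT cells, a difference of 1.37 that was 2.62 on high and 0.59 on low 18S arrays. WT cell 11 passed the threshold through another of the 7 probe sets, which was not the one used for the gene. The Ccnd2 probe sets not used had differences between -0.16 and 0.92.

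Ccnd3, the third D-type cyclin, was detected in 1 N1-CKO cell (7.7%, 0.2 to 36.0) and in 4 WT cells (30.8%, 9.1 to 61.4). Its log2 signal ran from 4.65 through a median of 5.59 to 11.27 in N1-CKO cells, and from 4.65 through 6.95 to 13.25 in WT cells. The difference of -1.37 was within the spread over cells of both groups, and it came to -0.55 where the Gapdh ratio did not exceed 3. The 2 other Ccnd3 probe sets were detected in 0 cells. Every cell with Ccnd2 or Ccnd3 also had Ccnd1, and none had all 3 D-type cyclins.

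The E-type cyclins were near the floor in almost every cell. Ccne1 was detected in N1-CKO cell 10 alone, at 10.05, and in 0 of 13 WT cells, which allows up to 23.1%. N1-CKO cell 1 had a higher Ccne1 signal, 10.98, which was 0.10 below that cell's own threshold. Ccne2, on 1 probe set, was detected in 0 of 13 N1-CKO cells, which again allows up to 23.1%, and in WT cell 10, at 9.78. It reached 9.28 in N1-CKO cell 9 and 10.91 in WT cell 4, and these were 0.06 and 0.14 below the threshold of their cells. The medians were 6.05 in N1-CKO and 6.35 in WT cells for Ccne1, and 5.47 in N1-CKO and 4.65 in WT cells for Ccne2. With 1 detected cell each, no difference between the groups was detectable for either gene with 13 cells a group.

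**Figure D1:**
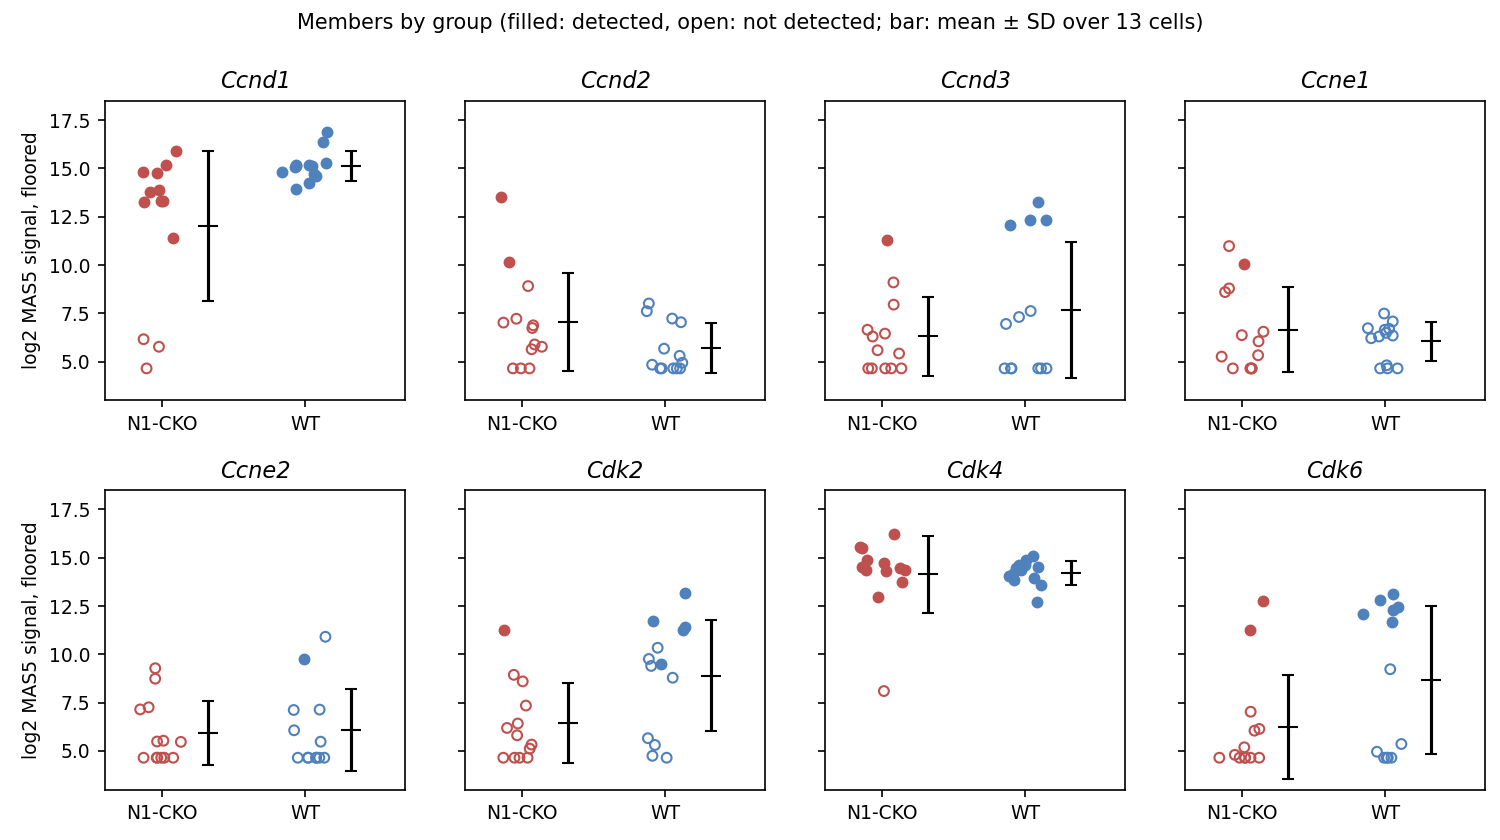
Log2 MAS5 signal (floored at 4.65) of the 8 genes in N1-CKO cells (left in each panel) and WT cells (right), 1 point per cell, filled where detected, with bars for the mean and SD over 13 cells. Ccnd1 spans 4.65 to 15.92 in N1-CKO cells and 13.93 to 16.87 in WT cells, while Cdk4 is detected in 12 and 13 cells.

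Cdk4, a kinase partner of the D-type cyclins, was detected in nearly every cell of both groups, and Cdk2, the partner of the E-type cyclins, in few. Their promoters are shown because these kinases stand at opposite ends of that range, one measured almost everywhere and the other with a lower mean in N1-CKO cells. The 250 bases before the start of each gene are from RefSeq (GRCm38.p6), written 5′ to 3′ on the strand of the gene, chr10:127063285-127063534 (plus strand) for Cdk4 and chr10:128705052-128705301 (minus strand) for Cdk2. Capitals mark 2 kinds of motif searched on both strands, which do not overlap here. They are the E-box CACGTG, the sequence that Myc and its partner Max bind, and the E2F motif, taken as TTTCCCGC, TTTCGCGC, TTTGCCGC or TTTGGCGC.
Cdk4: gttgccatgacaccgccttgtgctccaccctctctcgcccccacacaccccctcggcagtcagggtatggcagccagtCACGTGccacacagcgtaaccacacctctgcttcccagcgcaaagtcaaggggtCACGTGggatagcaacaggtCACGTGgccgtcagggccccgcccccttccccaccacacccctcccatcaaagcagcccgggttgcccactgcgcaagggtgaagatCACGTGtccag
Cdk2: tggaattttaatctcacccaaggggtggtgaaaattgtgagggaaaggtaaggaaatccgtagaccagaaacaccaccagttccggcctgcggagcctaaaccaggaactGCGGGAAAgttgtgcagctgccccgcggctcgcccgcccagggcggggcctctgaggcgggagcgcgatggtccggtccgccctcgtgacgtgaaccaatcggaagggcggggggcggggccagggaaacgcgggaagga
The Cdk4 window held 4 E-boxes, which begin 172, 118, 98 and 11 bases before the start, and no E2F motif. An E-box was present in 6.02% of 32851 RefSeq promoter windows of this length, and 3 or more in 0.061%. The Cdk2 window held 1 E2F motif, in reverse orientation, 140 bases before the start, and no E-box. That motif was present in 1.86% of all windows. The Cdk6 window held 1 E-box, 220 bases before the start, and neither motif was found in the windows of Ccnd3 and Ccne1. Ccnd1, Ccnd2 and Ccne2 were not searched. A match is a run of letters and shows no binding in these cells.

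Cdk4 was detected in 12 of 13 N1-CKO cells (92.3%, 64.0 to 99.8) and in all 13 WT cells (100%, 75.3 to 100). Its log2 signal was 8.10 at the lowest, 14.47 at the median and 16.25 at the highest in N1-CKO cells, and 12.72, 14.34 and 15.10 in WT cells. The means were 14.14 ± 1.99 in N1-CKO and 14.22 ± 0.62 in WT cells (SD, n = 13 each), a difference of -0.09 that is far inside the spread over cells. Over the cells that had Cdk4, the mean was 14.64 ± 0.86 in 12 N1-CKO cells and 14.22 ± 0.62 in 13 WT cells. The exception was N1-CKO cell 10, where all 3 Cdk4 probe sets were below the threshold. In that cell Cdk6, the other kinase of the D-type cyclins, was detected at 11.26, together with Ccnd1 and Ccne1. The probe sets used for Cdk4, Ccnd2 and Ccne1 are of a type (_x_at) that can bind related transcripts. For Cdk4 the 3 probe sets followed each other across cells with r between 0.96 and 0.98, and their differences were -0.09, -0.14 and -0.27.

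Cdk6 was detected in 2 N1-CKO cells (15.4%, 1.9 to 45.4) and in 6 WT cells (46.2%, 19.2 to 74.9). Its log2 signal ran from 4.65 through a median of 4.80 to 12.78 in N1-CKO cells, and from 4.65 through 9.23 to 13.12 in WT cells. The cells that had Cdk6 averaged 12.02 ± 1.08 in 2 N1-CKO and 12.41 ± 0.51 in 6 WT cells, so the groups were set apart by how many cells had it more than by its signal in them. The difference of -2.42 was within the spread over cells of both groups, 2.69 in N1-CKO and 3.82 in WT cells. It was -0.94 on high and -3.35 on low 18S arrays. A further Cdk6 probe set had a difference of -1.69, and the last was detected in 0 cells. WT cell 9 passed the threshold through a Cdk6 probe set that was not the one used for the gene. That cell had Cdk2 but not Mki67 detected, and it is not counted among the cells with Cdk6.

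Cdk2 was detected in N1-CKO cell 4 alone (7.7%, 0.2 to 36.0), at 11.25, and in 5 WT cells (38.5%, 13.9 to 68.4). Some of these calls were close, since it passed the threshold by 0.2 in N1-CKO cell 4 and WT cell 2. In WT cell 11 it passed by 0.06. The log2 signal of Cdk2 ran from 4.65 through a median of 5.81 to 11.25 in N1-CKO cells. In WT cells it ran from 4.65 through 9.48 to 13.17. The means were 6.43 ± 2.07 in N1-CKO and 8.90 ± 2.89 in WT cells (SD, n = 13 each). The difference of -2.47 lay between these SDs in size. It was -1.71 on high and -2.95 on low 18S arrays and rests on 1 probe set, since the other Cdk2 probe set was detected in 0 cells and had a difference of 0.04.

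Over the 8 genes, 6 were detected in at least 2 of the 26 cells, as were 8280 of all genes. Of the 6, 4 had a difference of -1 or lower (Ccnd1, Ccnd3, Cdk2 and Cdk6), which 22.3% of the 8280 genes had. Only Ccnd2 had a difference of 1 or higher, which 1 of its probe sets reached, against 19.1% of all genes. A lower mean in N1-CKO cells was found for 5 of the 6, against 51.5% of all genes, and 5 were detected in fewer N1-CKO than WT cells, against 39.0%. The median difference of the 6 genes was -1.89, and that of all 8280 genes was -0.04. On high 18S arrays 2 of the 6 had a difference of -1 or lower, as had 2074 of the 8280 genes. The median of the 6 there was -0.77, against 0.18 for all genes. On low 18S arrays 4 of the 6 had such a difference, as had 2571 of the 8280 genes. The median of the 6 there was -2.29, against -0.15 for all genes. For none of the 8 genes was the difference larger than the SD of both groups, and the groups overlapped for each. Ccne1 and Ccne2, left out of these counts, had differences of 0.60 and -0.17.

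**Figure D2:**
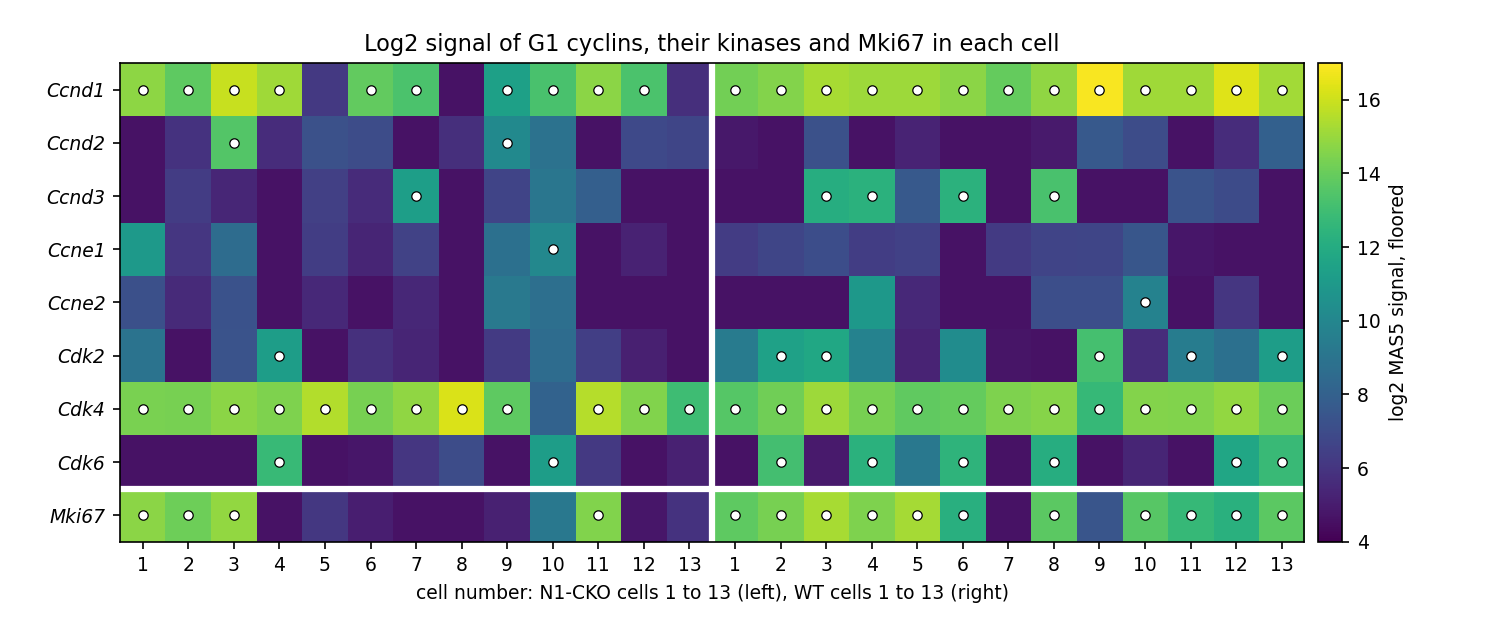
Log2 MAS5 signal (floored, colour scale) of the 8 genes and Mki67 in each of 13 N1-CKO cells (left) and 13 WT cells (right). Ccnd1 and Cdk4 are bright in 10 and 12 N1-CKO cells and in every WT cell, and Cdk2 and Cdk6 are patchy, in 1 and 2 N1-CKO cells and 5 and 6 WT cells.

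N1-CKO cells had a median of 2 of the 8 genes (range 1 to 4) and WT cells a median of 3 (2 to 4). At least 3 of the genes were detected in 5 N1-CKO and 10 WT cells. Transcripts of a D-type cyclin and of Cdk4 or Cdk6, whose proteins pair, were both detected in 10 N1-CKO and 13 WT cells. These are the counts of Ccnd1 itself. Every cell with Ccnd2 or Ccnd3 also had Ccnd1, and every cell had Cdk4 or Cdk6. Cdk4 and Cdk6 were found together in 1 N1-CKO and 6 WT cells. At least 1 of Ccnd3, Cdk2 and Cdk6 was detected in 3 N1-CKO and 9 WT cells. Each of these 3 genes had a difference of -1 or lower, so this count is not a separate result. The counts before it come from the same detection calls and are not separate results either. All cells with Cdk2 (6) or Cdk6 (8) also had Ccnd1, and 3 cells had both kinases. N1-CKO cell 4 and WT cells 2 and 13 were those 3, and each held Ccnd1, Cdk2, Cdk4 and Cdk6.

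Mki67 was detected in N1-CKO cells 1, 2, 3 and 11 (4 of 13, 30.8%, 9.1 to 61.4) and in 11 of 13 WT cells (84.6%, 54.6 to 98.1). Its values fell apart into 15 cells between 12.20 and 15.29 and 11 cells between 4.65 and 9.23, so the 8 genes were compared between these sets of cells. Ccnd1 was detected in all 15 cells with Mki67 and in 8 of 11 without. Its mean was 15.00 ± 0.62 with Mki67 and 11.61 ± 4.14 without, a difference of 3.39 that is within the spread over the cells without Mki67. Ccnd1 was therefore present in every cell with Mki67 but did not mark them, since 8 cells had it without Mki67.

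Within groups, Ccnd1 averaged 14.82 ± 0.87 in the 4 N1-CKO cells with Mki67 and 10.77 ± 4.07 in the 9 N1-CKO cells without, 6 of which had it. In WT cells it averaged 15.07 ± 0.54 in the 11 cells with Mki67, and it was 13.93 and 16.87 in the 2 without. Among cells with Mki67, the N1-CKO minus WT difference in Ccnd1 was thus -0.25, smaller than the spread over either set, and among cells without it was -4.62. The second value rests on 2 WT cells. Gapdh ratios had a median of 1.70 in cells with Mki67 and 3.26 in cells without. Their part in these differences was not tested.

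The other genes had smaller differences between cells with and without Mki67. Cdk4 was detected in 15 of 15 cells with Mki67 and in 10 of 11 without, at 14.45 ± 0.51 and 13.81 ± 2.15. Cdk6 was detected in 6 of 15 cells with Mki67 and in 2 of 11 without, Cdk2 in 4 and 2, and Ccnd3 in 4 and 1. Their differences, with minus without, were 1.83, 1.60 and 1.57, each within the spread over cells, and that of Cdk2 was -1.09 on high 18S arrays. Ccnd2 was in 1 cell of each set, Ccne1 in 0 of 15 and 1 of 11, and Ccne2 in 1 of 15 and 0 of 11. Of the 6 genes detected in at least 2 cells, 4 were higher by 1 or more in cells with Mki67, against 29.3% of all genes, and their median was 1.59 against 0.27.

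Among cells with Mki67, Ccnd3, Cdk2 and Cdk6 were all missing from the 4 N1-CKO cells (0 of 4, which allows a share of up to 75.0%), while 8 of the 11 WT cells had at least 1 of them. The 4 N1-CKO cells had a median of 2 of the 8 genes and the 11 WT cells a median of 4. Among cells without Mki67, 3 of 9 N1-CKO cells and 1 of 2 WT cells had at least 1 of the 3. Each of these 3 genes had a difference of -1 or lower over all cells, so these counts are not a separate result. Ccnd2, with a difference the other way, was detected in 1 of the 4 N1-CKO and 0 of the 11 WT cells with Mki67.

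Pearson's r with Mki67 over the 26 cells is given as a description, since cells share animals that the labels do not name and Mki67 falls into separate sets. It was 0.54 for Ccnd1 (Spearman's rho 0.51), with 0.49 within N1-CKO cells, -0.05 within WT cells and -0.13 among the 15 cells with Mki67. For the other 7 genes r over 26 cells was 0.33 for Cdk2, 0.28 for Ccnd3, 0.24 for Cdk6 and 0.20 for Ccne1. It was 0.18 for Ccne2, 0.04 for Cdk4 and -0.09 for Ccnd2. Within N1-CKO and WT cells r was 0.20 and 0.09 for Cdk2, 0.01 and 0.38 for Ccnd3, and -0.21 and 0.40 for Cdk6. Spearman's rho of Cdk6 over 26 cells was 0.07. A value of at least 0.5 was reached by 1 of the 6 genes and by 2.65% of all genes, and the median r was 0.26 for the 6 and 0.05 for all.

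**Figure D3:**
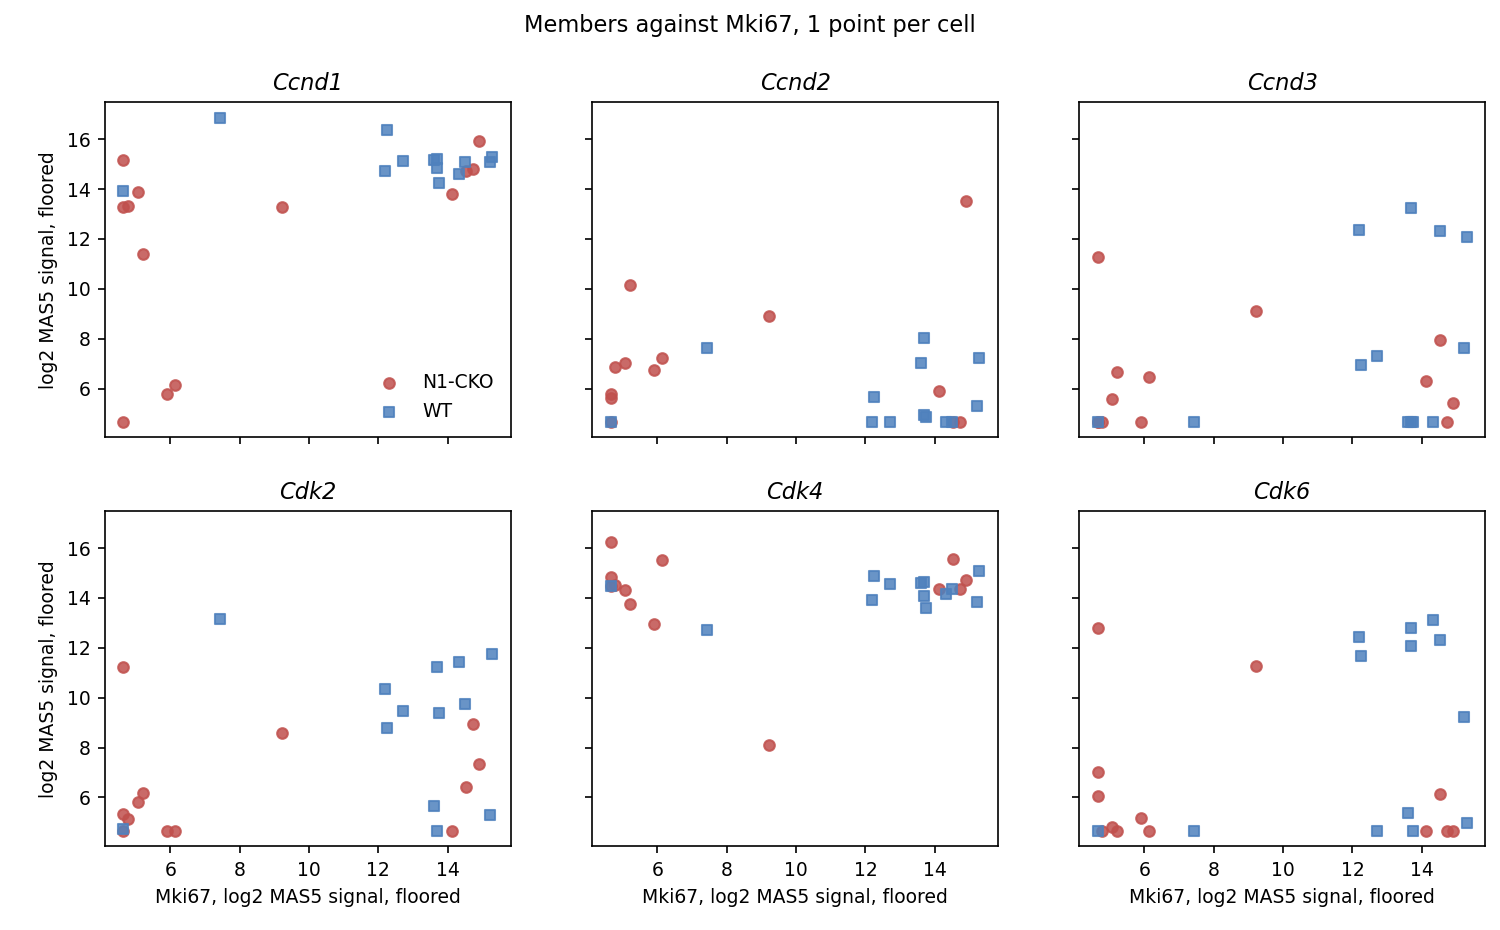
Log2 MAS5 signal (floored) of Ccnd1, Ccnd2, Ccnd3, Cdk2, Cdk4 and Cdk6 against that of Mki67, 1 point per cell. N1-CKO and WT cells have separate colours and markers. Ccnd1 is at least 13.80 in all 15 cells with Mki67 and spans 4.65 to 16.87 in the 11 cells without, and Cdk4 is bright on both sides.

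The replication genes that E2F drives give a second view of the cycle. Of 17 measured, cells with Cdk6 had a median of 8 detected (2 to 12, 8 cells) and cells without it 4.5 (1 to 10, 18 cells). Cells with Ccnd1 had a median of 6 (23 cells), and the 3 cells without had 1. Cells with Cdk2 had 6.5 and cells without 4.5. These contrasts include the difference between the groups, since WT cells had a median of 7 and N1-CKO cells of 3. WT cells made up 5 of the 6 cells with Cdk2 and 6 of the 8 with Cdk6. The 5 WT cells with Cdk2 (2, 3, 9, 11 and 13) had 5, 7, 2, 7 and 6 replication genes. The 6 WT cells with Cdk6 (2, 4, 6, 8, 12 and 13) had 5, 12, 12, 4, 10 and 6. N1-CKO cell 4 stood apart, with Ccnd1, Cdk2, Cdk4 and Cdk6, 12 of 17 replication genes, 0 of 17 mitosis genes and Mki67 at the floor. It had 5 progenitor and 5 photoreceptor markers and a Gapdh ratio of 5.16, and its Cdk2 passed the threshold by only 0.2. The nearest WT pattern was that of WT cell 12, with Ccnd1, Cdk4 and Cdk6, 10 replication genes and 1 mitosis gene, which had Mki67 at 12.26. These 2 cells were chosen after their values were seen.

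Across the 26 cells, Cdk2 had r of 0.53 with the mean of the replication list and 0.30 with that of the mitosis list, and Cdk6 had 0.50 and 0.19. For Ccnd1 these values were 0.55 and 0.43, and its r with the progenitor markers was 0.59, with 0.74 within N1-CKO and -0.05 within WT cells. Cdk4 had r between -0.21 and 0.15 with every list compared. Among the 8 genes, Ccnd1 and Cdk2 had r of 0.54, Ccnd1 and Cdk4 -0.11, and Cdk2 and Cdk6 0.39. Within WT cells the r of Ccnd1 was 0.08 with replication and -0.28 with mitosis genes, against 0.61 and 0.46 within N1-CKO cells, and that of Cdk2 with replication was 0.68 in N1-CKO and 0.24 in WT cells. The values over 26 cells thus include the difference between the groups. All arrays were scaled to the same mean, and no test was made of these values.

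Over all cells, the Cdk inhibitors detected in at least 2 cells had lower means in N1-CKO cells as well. Of 7 genes, 5 were so detected, all 5 with a lower mean, against 51.5% of all genes. Their median was -1.13, and 3 had a difference of -1 or lower. On high 18S arrays 3 of the 5 had a lower mean (median -0.69), against 3761 of the 8280 genes. On low 18S arrays 4 did (median -1.79), against 4485 of the 8280. Where the Gapdh ratio did not exceed 3, 3 of the 5 did (median -0.58), against 4120 of the 8280. With only 5 genes, a count of 3 does not set the list apart from all genes. Cdkn1b, which encodes p27, an inhibitor of Cdk2 that rises as retinal cells leave the cycle, was detected in 9 N1-CKO and 11 WT cells, at 9.89 ± 2.52 in N1-CKO and 11.89 ± 1.52 in WT cells. Cdkn1c (p57), which acts in subsets of retinal precursors, was detected in 1 N1-CKO and 5 WT cells, with a difference of -1.96. Cdkn2d (p19Ink4d), an inhibitor of Cdk4 and Cdk6, was in 4 N1-CKO and 5 WT cells, with r of 0.67 with Mki67, and its difference of -1.13 was 0.72 on high and -2.29 on low 18S arrays. Cdkn2c (p18Ink4c), of the same family, was in 1 N1-CKO and 5 WT cells, and its difference of -0.90 was 2.27 on high and -2.89 on low 18S arrays. Cdkn1a (p21) was in 1 and 2 cells, with a difference of -0.14. Cdkn2a and Cdkn2b were detected in 0 cells.

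The targets of the kinases and their factors were mixed. Of 13 retinoblastoma, E2F and DP genes, 9 were detected in at least 2 cells, 6 with a lower and 3 with a higher mean. A lower mean was found for 51.5% of all genes, and the median difference of the 9 was -0.05. Rb1, the retinoblastoma gene, was in 6 N1-CKO and 7 WT cells, with a difference of 0.06, and Rbl2, which encodes p130, in 2 and 0 cells, with a difference of 0.61. E2f1, an activating E2F, was in 1 N1-CKO and 4 WT cells, with a difference of -2.30. E2f8, a repressing E2F, was in 0 of 13 N1-CKO and 4 of 13 WT cells, and its difference of -2.76 was 0.91 on high 18S arrays. E2f7, likewise a repressing E2F, was in 1 N1-CKO and 3 WT cells, and its difference of -1.21 was 0.35 on high 18S arrays. Tfdp1, the partner of E2F factors, was in 6 cells of each group, and its difference of 0.85 was 3.69 on high and -0.92 on low 18S arrays.

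Of 12 genes that activate the G1 kinases or turn their cyclins over, 10 were detected in at least 2 cells. A lower mean was found for 8 of the 10, against 51.5% of all genes, and a higher mean for 2. The median difference of the 10 was -1.39. Cks2 and Cks1b, small subunits that bind Cdks, were in 5 and 7 N1-CKO cells and in 10 and 11 WT cells, with differences of -3.88 and -2.87. Mnat1, a subunit of the kinase that activates Cdks, was in 3 N1-CKO and 7 WT cells, with a difference of -2.92. Cdc37 ran the other way. This cochaperone, which delivers Cdk4 and other kinases to Hsp90, was detected in 10 N1-CKO and 3 WT cells, at 10.97 ± 3.29 in N1-CKO and 7.78 ± 3.38 in WT cells, a difference of 3.19 that is slightly inside both SDs.

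Genes of later cycle phases had lower means in N1-CKO cells. All 4 of the A and B cyclin, Ccnf and Cdk1 genes detected in at least 2 cells had a difference of -1 or lower. This was so for 22.3% of all genes, and the median of the 4 was -3.03. Ccna2, the cyclin that follows cyclin E on Cdk2, was in 2 N1-CKO and 8 WT cells, Ccnb2, a cyclin of mitosis, in 1 and 6, its kinase Cdk1 in 2 and 7, and Ccnf in 0 and 5. On high 18S arrays 2 of the 4 had such a difference, with Cdk1 at -0.40 and Ccnf at -0.46, and the median was -1.09. On low 18S arrays all 4 had one, and the median was -4.16. Such a difference was found for 2074 of the 8280 genes on high and 2571 on low 18S arrays. Of 17 mitosis genes, all 17 had a lower mean and 16 a difference of -1 or lower, against 51.5% and 22.3% of all genes. The median of the 17 was -2.85. The largest differences were those of Nusap1 (-5.72), Cdc20 (-4.36), Mki67 (-4.22) and Ube2c (-3.92). On high 18S arrays 13 of the 17 had a lower and 4 a higher mean, at a median of -1.16. On low 18S arrays all 17 had a lower mean, at -4.01. Of the 8280 genes, 3761 had a lower mean on high and 4485 on low 18S arrays. Of 16 replication genes, 9 had a difference of -1 or lower, against 22.3% of all genes, and 5 had a higher mean. The median of the 16 was -1.27, with -0.36 on high and -1.84 on low 18S arrays. Rrm1, a subunit of ribonucleotide reductase, was in 5 N1-CKO and 13 WT cells, with a difference of -4.81, and Uhrf1, Mcm3 and Rrm2 had -3.68, -3.30 and -3.14. The inputs that act on G1 cyclins, growth factor and Hedgehog receptors, Myc family and Wnt genes, had 3 lower and 3 higher means of 6. This is near the share of 51.5% of all genes with a lower mean, and the median was -0.09. Gli2, a transcription factor of Hedgehog signalling, was in 0 of 13 N1-CKO and 3 of 13 WT cells, and its difference of -0.76 was 0.87 on high 18S arrays. Ptch1, the Hedgehog receptor, was in 6 N1-CKO and 5 WT cells, and its difference of 0.45 was -0.66 on high 18S arrays. Mycn and Mycl were detected in 8 and 7 N1-CKO cells and in 7 and 7 WT cells, and Myc in 0.

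**Figure D4:**
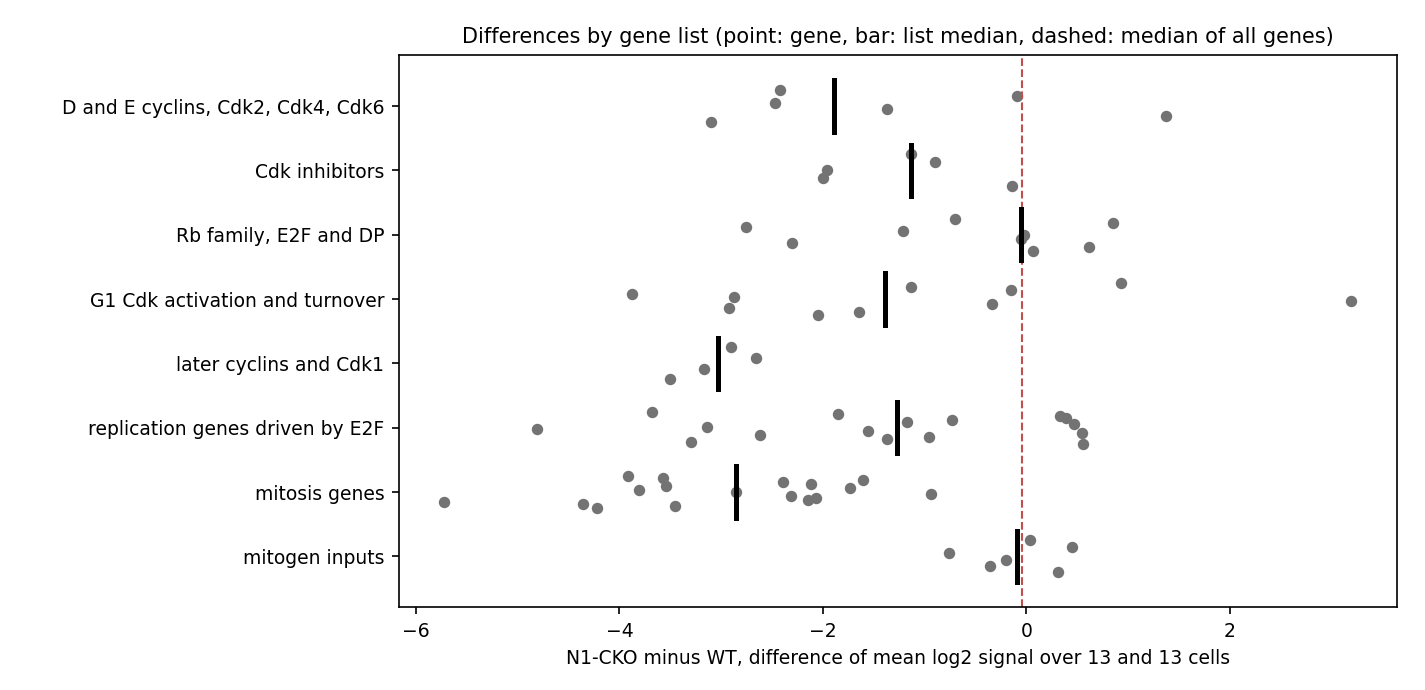
Difference of mean log2 signal, N1-CKO minus WT, for genes detected in at least 2 of 26 cells, by list (point, gene; bar, list median; dashed line, median of all genes at -0.04). Medians run from -3.03 for later cyclins and Cdk1 to -0.05 for retinoblastoma, E2F and DP genes, with the G1 cyclins and kinases at -1.89.

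Cell type markers moved with the groups beside these lists. Of 6 measured photoreceptor markers, N1-CKO cells had a median of 5 (1 to 5) and WT cells 2 (0 to 5). Of the 5 detected in at least 2 cells, 4 had a difference of 1 or higher, against 19.1% of all genes. The mean log2 value of the list ran from 6.18 to 14.22 in N1-CKO and from 5.88 to 13.62 in WT cells. Of 6 neuronal markers, N1-CKO cells had a median of 4 (1 to 6) and WT cells 2 (0 to 5), and list means ran from 6.67 to 12.50 in N1-CKO and from 5.55 to 11.25 in WT cells. Of 8 progenitor markers, N1-CKO cells had a median of 3 (1 to 6) and WT cells 5 (2 to 8), and list means ran from 6.75 to 11.29 in N1-CKO and from 7.64 to 12.54 in WT cells. Among the photoreceptor markers Neurod1 was detected in 13 N1-CKO and 9 WT cells and Otx2 in 11 and 7, while Rcvrn, which encodes recoverin, was detected in 0 cells. Nrl, of the same list, was in 9 cells of each group, with a difference of -0.34. Of the 6 neuronal markers 5 had a higher mean in N1-CKO cells, as had 4015 of the 8280 genes. The other neuronal marker, Gap43, was in 2 N1-CKO and 4 WT cells, with a difference of -1.21. Of the 8 progenitor markers 7 had a lower mean in N1-CKO cells, 5 of 8 on high and 8 of 8 on low 18S arrays. Of the 8280 genes, 4265 had a lower mean over all cells, 3761 on high and 4485 on low 18S arrays. Lhx2 was detected in 5 N1-CKO and 12 WT cells, Hes1, a target of Notch signalling, in 1 and 6, Fgf15 in 3 and 7 and Sox2 in 7 and 9. Six3 ran the other way, in 8 N1-CKO and 6 WT cells with a difference of 1.17, and Rax was in 9 and 8 cells. Six3, Rax, Nrl and Gap43 were chosen after their values were seen. The part of a different mix of cell types in the values of the 8 genes was not tested.

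Of 5 amacrine markers N1-CKO cells had a median of 1 and WT cells 0, and of 5 Muller glia markers 1 and 2. Bipolar and ganglion cell markers had a median of 0 in both groups. Markers of cells other than retinal neurons and glia were close to absent, with Gfap of the astrocyte list in 1 WT cell and Mitf of the pigment epithelium list in 1 N1-CKO cell. Of 6 microglial markers, 5 were detected in 0 cells and C1qa in 1 WT cell, and erythroid markers, 3 measured, were in 0 cells. Of 5 endothelial markers, Pecam1, Cdh5, Tek and Cldn5 were in 0 cells, and Kdr alone was detected, in 3 N1-CKO and 9 WT cells.

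Genes most like the 8 were sought by Pearson's r over the 26 cells among 4681 others detected in at least 6 cells, for the 4 genes with as many detected cells. For Ccnd1 they were Crym and Nap1l4 (0.65 each), Zbtb18 and Hspa5 (0.64 each) and Sf3b1 (0.63). Of these, Sf3b1 had the highest r within each group, 0.74 in N1-CKO and 0.55 in WT cells. Without the cell with the lowest Ccnd1, r over the remaining cells came to 0.43 for Sf3b1 and to between 0.53 and 0.71 for the others. For Cdk2 they were Arhgap31 (0.71), LOC102631979 (0.69) and Prc1 (0.67), and for Cdk6 they were Gid8 (0.70), Vps4b (0.64) and Hs3st4 (0.64). For Cdk4 they were Marcksl1 (0.87), Elob (0.87) and Egr1 (0.86). Without N1-CKO cell 10, the cell that lacked Cdk4, these came to 0.37, 0.46 and 0.47, so their size over 26 cells rests on that cell. Within WT cells, which do not include it, r was 0.01 for Marcksl1, 0.79 for Elob and 0.25 for Egr1.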

How the data were processed

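The authors deposited array intensity, not log-transformed, and the submitters' processing notes name MAS5, with its version not given in the sources used here. Each array had a mean of 500.0 once the outer 2% at both ends were trimmed, so these values hold no measure of total RNA. Per the labels' protocols, cDNA of each cell was primed with oligo dT and amplified by PCR, which places signal near 3′ ends. No 2 arrays were identical (pairwise r of log2 signal 0.21 to 0.64).

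Of 45101 probe sets, 64 were controls, 34945 had 1 gene symbol in the platform annotation and 932 had several and were left out; 34741 matched RefSeq by Entrez number. Signals were floored at 25.02, the pooled median, and put on the log2 scale. The probe set with the highest mean over 26 cells stood for a gene. Detection (the 90th percentile) marks 4504 probe sets in every cell. Genes detected in at least 2 cells were compared, and a difference of at least 1 in size was counted. No level of a gene was set against that of another. With each group taken as 1 sample, there is no p-value.

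The genes, lists and markers were chosen with earlier results of these data known. Named were all 8 genes, Mki67 and, of each list, up to 4 genes with the largest differences. Every Cdk inhibitor and retinoblastoma gene detected in at least 2 cells was named, and the 5 (Ccnd1) or 3 genes with the highest r. Others are named to state a count of 0, a value that another result turns on, or a marker that departs from its list. The calculation of differences and of r was checked on simulated data. The simulated signals were bright and had less spread over cells than these, so the check does not bear on detection here. Alternatives covered the floor, normalization, probe set, detection and array subsets. Python 3.11.15, numpy 2.4.6, pandas 2.3.3, scipy 1.17.1 and matplotlib 3.10.9 were used.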

Additional observations from a re-analysis of the deposited data

How the results depend on the processing

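A value was taken as unchanged where it moved by no more than 1 SD over cells (0.2 for r, 1.5 times for a count) and, for a difference of at least 1 in size, kept its sign. No paired analysis was possible because cell numbers only name cells and no test was made. Over the alternatives that keep all cells or a subset of arrays, 95 of 96 differences between groups were unchanged, as were 94 of 96 differences between cells with and without Mki67, 86 of 96 values of r, all 132 list medians and all 24 counts. A list median can move several-fold within that limit, as from -5.44 to -1.16 for mitosis genes, from -4.16 to -1.09 for later cyclins and Cdk1, from -1.84 to -0.36 for replication genes and from -1.79 to -0.58 for Cdk inhibitors, and the median number of genes per cell ran from 2 to 3 in N1-CKO and from 2 to 4 in WT cells. Differences ranged from -3.68 to -1.77 for Ccnd1, from -4.43 to -0.94 for Cdk6, from -0.59 to 0.23 for Cdk4, from -1.85 to -0.52 for Ccnd3 and from 0.28 to 2.62 for Ccnd2, and the median of the genes from -2.29 to -0.77. Without probe sets ending in _s_at, _x_at or _a_at, Cdk2 rested on its other probe set, detected in 0 cells, and gave 0.04 for N1-CKO minus WT, -0.16 for cells with minus without Mki67 and r of -0.14, and r of Ccnd2 was 0.12. On high 18S arrays, Cdk2 gave -1.09 with minus without Mki67 and r of -0.09, and r was -0.13 for Ccne1 and -0.10 for Ccne2. On low 18S arrays, r was 0.40 for Ccne1 and -0.18 for Cdk4. With a Gapdh ratio of at most 3, r was -0.03 for Ccnd3, -0.03 for Ccne1 and -0.06 for Ccne2. The cause of these moves was not tested beyond the change of probe set or cells itself. Leaving out each cell in turn, differences between groups ran from -3.43 to -2.49 for Ccnd1 and from -2.96 to -2.05 for Cdk6. They ran from -2.87 to -2.12 for Cdk2, and r of Ccnd2 ran from -0.33 (without N1-CKO cell 3) to 0.00. All 208 such differences counted as unchanged. Leaving out 1 cell can move the mean of its group by only part of the SD, so no conclusion is drawn from that count. Over genes detected in at least 6 cells, 25.9% had a difference of -1 or lower and 21.4% of 1 or higher. Genes at or near the floor, Ccne1 and Ccne2 above all, are limited by signal over background.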
